A study of Mus musculus with 8 samples.

Results

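A set of 99 genes had transcripts that were more abundant in the RO than in the PA spermatogenic cells of both wild-type and Alkbh5 knockout mice. They were chosen on the measured values themselves. A gene had to reach 10 CPM in at least 1 input library (CPM here means counts divided by the library's size factor and expressed relative to the mean library total, not per gene length), and its lower RO value had to be at least 2 times its higher PA value, with 0.5 added to each. The authors' counts cover 53465 genes, of which 13493 reached that level, and 99 of those (0.734%) met the rule, while 82 (0.608%) met the mirrored rule for PA. Because the values chose the genes, their RO over PA ratios are a description and carry no test.

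During spermatogenesis, spermatocytes pass through a long meiotic prophase, divide, and become haploid round spermatids, which then build an acrosome and a tail and repack their chromatin. Male germ cells transcribe an unusually wide part of the genome in these stages, long non-coding RNAs included. N6-methyladenosine, m6A, is a methyl mark on the adenosines of RNA that is laid down by a methyltransferase complex, read by YTH-domain proteins and removed by ALKBH5, a demethylase that mice need for normal sperm production. In MeRIP-seq, fragmented RNA is pulled down with an antibody against m6A and sequenced beside its input, so that the input gives transcript levels and a peak marks a stretch enriched by the antibody.

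The cells came from testes of 12-week-old C57BL/6 mice, either wild type (WT) or Alkbh5-/- (KO). The titles name 2 cell fractions, PA and RO, without spelling them out, and the labels do not say how the fractions were separated or how many animals gave them. Each genotype and fraction had 1 input and 1 immunoprecipitated library, 8 samples in all, and there was no replicate. Every difference below is therefore a difference between single libraries, and no test of a genotype or a fraction was made. Input totals ran from 9921365 to 13147239 counts, so that 1 CPM stood for 11.2 to 12.2 counts.

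Marker genes were used to check the reading of RO as round spermatids. Of 20 acrosome and sperm-egg fusion genes with a name, 14 were higher in RO in both genotypes and 1 was lower in both, with a median log2 ratio of RO over PA of 0.74 in WT and 0.56 in KO (0.5 added to each value here and in the log2 ratios that follow). The sperm-tail genes had medians of 0.56 and 0.42 over 33 genes, and the 4 genes of spermatid chromatin packaging with a name 0.76 and 0.62, where the median of all genes at the level was -0.02 in both genotypes. The KO PA library, at a sum of 381 CPM for these 4 packaging genes, stood above WT RO at 220, with 132 in WT PA and 643 in KO RO. Cilium and axoneme genes had medians of 0.19 and 0.26 over 31 genes, and spermatid transcription and RNA regulators -0.00 and 0.11 over 23, of which 11 were higher and 7 lower in RO in both genotypes. Meiotic prophase genes were not correspondingly low in RO: the medians of 18 genes were -0.03 and 0.16, and Sycp1, a component of the synaptonemal complex, stood at 346 CPM (WT) and 328 (KO) in PA cells and 351 and 419 in RO cells. The 2 fractions thus differed modestly in these markers, and the genes are called here by their rule, as genes higher in RO.

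None of the 30 genes with a name was on a list of germ-cell or somatic markers used here; the other 69 could not be matched to the lists. Among the list genes with a name, which are 20 of 43 for the acrosome and 4 of 15 for chromatin packaging, the nearest to the rule was Spam1, the hyaluronidase of the sperm head, whose lower RO value was 1.74 times its higher PA value. Summed Leydig-cell markers, over 3 of 10 genes with a name, were 149 CPM (WT) and 43.9 (KO) in PA cells and 45.9 and 16.7 in RO cells, and summed macrophage and leukocyte markers, over 4 of 12 genes, were 45.8, 77.4, 62.2 and 87.7 in the same order. Summed Sertoli-cell markers, over 9 of 18 genes, were 416, 519, 316 and 361, and none of the 7 erythroid genes had a name. The part of other cells in the RO and PA values was not tested, and in bulk RNA a larger share of cells of a type and more RNA per cell cannot be told apart. Over the genes at the level, KO PA and KO RO were the most alike pair of libraries (Pearson r of log2 values 0.92), and WT RO and KO RO had 0.85, given as a description over genes that share library and depth.

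Names and classes exist here only for genes with a peak in some peak list, and this limits what can be said of the genes higher in RO. A name was at hand for 30 of the 99. The other 69 had no peak in any list and no name, class or chromosome here. With 30.3% covered, below the 80% needed, any check of class, position or sequence over the whole set is void, and such values below describe the 30 only.

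RefSeq start-site sequences (build GRCm38.p6, the assembly also called mm10) were at hand for 12 of the 30, in 19 windows of 250 bases before an annotated start. The 5 windows that overlap no RefSeq gene are shown, because they hold upstream sequence alone. They belong to Sema4a, Slc17a7, Sox12, Smkr-ps and 1700120G07Rik, and are written 5′ to 3′ along the gene's strand with CCAAT-box letters in capitals.
Sema4a, chr3:88461183-88461432, minus strand: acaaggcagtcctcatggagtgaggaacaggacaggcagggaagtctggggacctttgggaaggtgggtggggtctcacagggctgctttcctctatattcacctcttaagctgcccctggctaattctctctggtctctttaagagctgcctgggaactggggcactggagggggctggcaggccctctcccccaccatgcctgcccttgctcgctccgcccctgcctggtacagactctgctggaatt
Slc17a7, chr7:45163671-45163920, plus strand: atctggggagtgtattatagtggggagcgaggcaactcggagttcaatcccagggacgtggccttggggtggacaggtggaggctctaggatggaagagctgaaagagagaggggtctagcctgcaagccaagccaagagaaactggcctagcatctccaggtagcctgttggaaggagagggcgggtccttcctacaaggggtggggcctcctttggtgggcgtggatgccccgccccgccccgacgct
Sox12, chr2:152398047-152398296, minus strand: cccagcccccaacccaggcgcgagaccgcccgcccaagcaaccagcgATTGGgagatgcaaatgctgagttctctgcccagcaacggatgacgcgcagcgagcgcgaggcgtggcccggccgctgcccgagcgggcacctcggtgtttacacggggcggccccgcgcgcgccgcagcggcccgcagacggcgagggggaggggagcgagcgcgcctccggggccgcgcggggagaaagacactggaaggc
Smkr-ps, chr6:29985079-29985328, plus strand: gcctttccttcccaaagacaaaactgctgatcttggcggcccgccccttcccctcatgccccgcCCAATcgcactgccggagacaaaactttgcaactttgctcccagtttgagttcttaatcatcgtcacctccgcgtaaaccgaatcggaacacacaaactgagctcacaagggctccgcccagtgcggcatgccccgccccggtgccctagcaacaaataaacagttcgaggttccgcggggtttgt
1700120G07Rik, chr7:135196003-135196252, minus strand: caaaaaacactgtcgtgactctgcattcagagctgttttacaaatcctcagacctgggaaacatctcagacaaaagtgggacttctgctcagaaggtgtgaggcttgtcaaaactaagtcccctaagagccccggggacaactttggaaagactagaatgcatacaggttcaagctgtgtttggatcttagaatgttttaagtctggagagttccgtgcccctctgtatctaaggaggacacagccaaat

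These starts had no base composition in common: G and C made up 74.4% of the Sox12 window and 45.6% of the 1700120G07Rik window, and the median over all 32851 RefSeq windows was 52.4%. On both strands, the cyclic AMP response element TGACGTCA, the site of the CREM and CREB factors, was in 0 of the 19 windows and in 1.55% of all windows. The X-box, the site of RFX factors, was likewise in 0 of 19 and in 0.374% of all. A TATA box (TATAAA) was found in 1 window, of Oprl1, against 12.4% of all, and a CCAAT box (CCAAT) in 5, of Gm14151, Sema4a, Smkr-ps, Sox12 and Usp49, against 33.8%. The Sema4a match lies in another of its windows than the one printed. No match overlapped a match of another motif, and the matches describe letters in these windows only.

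The genes higher in RO mostly had low counts. Their median was 4.26 CPM (WT) and 4.39 (KO) in PA cells and 14.8 and 14.4 in RO cells, behind which stood median counts of 52, 49, 177 and 163. For 79 of the 99 the highest of the 4 values lay between 10 and 30 CPM, for 19 between 30 and 100, and for 1 above 100. Together they took 0.0593% of the counts (WT) and 0.0796% (KO) in PA cells and 0.208% and 0.225% in RO cells. All 4 libraries had at least 30 counts for 70 of the genes.

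The step from PA to RO was close to the threshold for most. The lower RO value was 2 to 25.9 times the higher PA value, with a median of 2.33, and 11 of the genes reached 3. The median log2 ratio was 1.61 in WT and 1.49 in KO. Across all genes at the level, 11.8% stood at least 2-fold higher in RO in WT (1588 genes) and 5.4% in KO (728 genes); 252 did so in both genotypes, and the 99 are those whose 4 values were also separated across genotypes. Just inside the threshold, 3 genes without a name had ratios of 2.000, 2.004 and 2.006; just outside lay a gene without a name at 2.000, Gm31752 at 1.994 and Gm3149 at 1.986. Requiring 20 CPM in place of 10 left 39 genes, and adding 2 in place of 0.5 left 60.

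**Figure D1:**
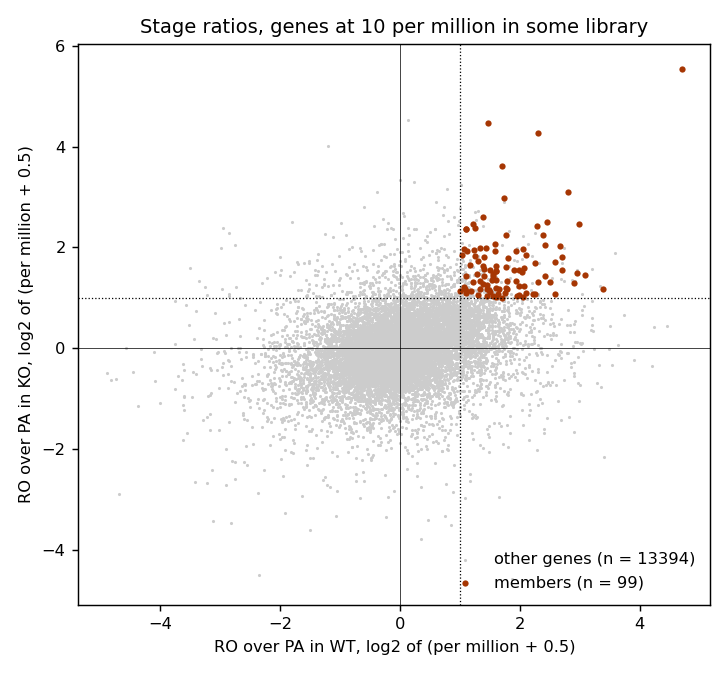
Each point is 1 of the 13493 genes at the level; the x axis is the log2 ratio of RO over PA in WT and the y axis the same in KO, with 0.5 CPM added to each value, and the genes higher in RO (labelled members) are coloured. The 99 genes lie above 1 on both axes by the rule, and further grey points lie there too because the rule also sets the lower RO value of either genotype against the higher PA value of either.

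Among protein-coding genes the highest CPM belonged to Gm14151, a predicted gene. It stood at 49 CPM (WT) and 38.7 (KO) in PA cells and 106 and 105 in RO cells. Both RO libraries were thus nearly equal, and its lower RO value was 2.13 times its higher PA value. It was the one gene of the set above 100 CPM.

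Several coding genes encode membrane proteins best known from other tissues. Sema4a, a transmembrane semaphorin of axon guidance and immune signalling, stood at 22.2 CPM (WT) and 20.5 (KO) in PA cells and 56.5 and 52.4 in RO cells. Oprl1, the G-protein-coupled receptor of the peptide nociceptin, stood at 14.1, 19.2, 50 and 44.1 in the same order. Svop, a synaptic-vesicle protein built like a membrane transporter, stood at 24, 23.4, 52 and 50.6. In all 3 the genotypes lay closer together than the fractions did. The rule favours this, since it asks the lower RO value to be at least 2 times the higher PA value.

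The set held 2 genes of glutamate transport. Slc1a2, the transporter that clears glutamate from the synaptic cleft into astrocytes, stood at 15.3 CPM (WT) and 16.2 (KO) in PA cells and 45.9 and 45.8 in RO cells. Its ratio of 2.77 was the highest of the coding genes with a name. Slc17a7, which loads glutamate into synaptic vesicles, had fewer counts, at 2.79, 5.19, 12.9 and 15.8, with a ratio of 2.35. The pair was noticed after the values were seen, and glutamate transport was no list examined here.

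Enzymes and a transcription factor followed at lower levels. Smpd3, a neutral sphingomyelinase that makes ceramide, stood at 11.7 CPM (WT) and 12.7 (KO) in PA cells and 30.2 and 29.4 in RO cells. Usp49, a deubiquitinase that acts on histones, stood at 9.18, 8.96, 26.2 and 22.1. Sox12, an SRY-related HMG-box transcription factor, stood at 3.53, 2.69, 11.8 and 8.64. The PA values of Smpd3 and Usp49 differed little between genotypes, and Sox12 was lower in KO in both fractions.

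The remaining coding genes were Prob1, Gm10643, Col19a1 and Cd72. Col19a1, a chain of the fibril-associated type XIX collagen, stood at 5.66 CPM (WT) and 9.05 (KO) in PA cells and 20.2 and 19.9 in RO cells. Cd72, an inhibitory co-receptor of B cells, stood at 3.85, 2.6, 9.87 and 10.5. Prob1 ranged from 12.1 in KO PA to 32.5 in WT RO, and Gm10643 from 9.76 in WT PA to 39.9 in WT RO. Cd72 is a leukocyte gene in other tissues, and its log2 ratio of RO over PA was 1.25 in WT and 1.83 in KO. Of the 4 macrophage and leukocyte markers with a name, Mrc1, which made up most of the sum, had 0.27 and 0.03, and Cd163 had 0.25 and -0.41. C1qc had 2.37 and 0.46, from 2 counts in WT PA, and Csf1r had 1.48 and 0.78. The part of leukocytes in the values of Cd72 was not tested.

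Of the genes that are not protein coding, AC127597.1, a lincRNA (a long intergenic non-coding RNA), had the highest CPM. It stood at 25.3 CPM (WT) and 38.1 (KO) in PA cells and 78.2 and 77.1 in RO cells. The second lincRNA by its lower RO value, 1700120G07Rik, stood at 7.38, 9.14, 21.8 and 20.4. The lincRNA Gm36849 had the highest ratio of all genes with a name, 3.33, at 2.38, 0, 13.8 and 9.08. Its 0 counts in KO PA against 103 in KO RO put it at least 33.8-fold higher in KO RO, against a floor of 3 counts in a library.

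Gm37945, a TEC (a locus marked in the annotation as still to be experimentally examined), followed with a ratio of 3.31 at 4.18, 2.78, 15.5 and 15 CPM. The lincRNA Gm28784 had 3.25, at 1.97, 0.448, 7.53 and 11.2. Among antisense RNAs, Gm45012 stood at 4.35, 3.13, 18.2 and 13.3, and Gm16159 at 4.26, 6.18, 13.2 and 16.5. Their ratios were 2.85 and 2.05, and the 2 genotypes lay in opposite order in them. Among processed pseudogenes, the highest lower RO values belonged to Gm44571, at 7.38, 8.24, 21 and 19.2, and AC123061.2, at 5.49, 4.75, 12.6 and 19.3. The files do not say how reads shared between a pseudogene and its parent gene were counted, so their levels are uncertain.

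The genes without a name reached similar levels. Their lower RO value had a median of 12.6 CPM against 14.8 for the genes with a name, and their median ratios were 2.37 and 2.3. The one with the highest lower RO value, ENSMUSG00000064202, stood at 22.6 CPM (WT) and 24.9 (KO) in PA cells and 67.1 and 68.4 in RO cells. ENSMUSG00000095710, singled out after its values were seen, had 0 counts in both PA libraries, 149 in WT RO and 256 in KO RO. It was at least 50.7-fold higher in RO in WT and at least 84-fold in KO against a floor of 3 counts in a library, and its ratio with 0.5 added, 25.9, was the highest of the set. In all, 5 of the 99 had 3 counts or fewer in a PA library, and 2 in both.

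**Figure D2:**
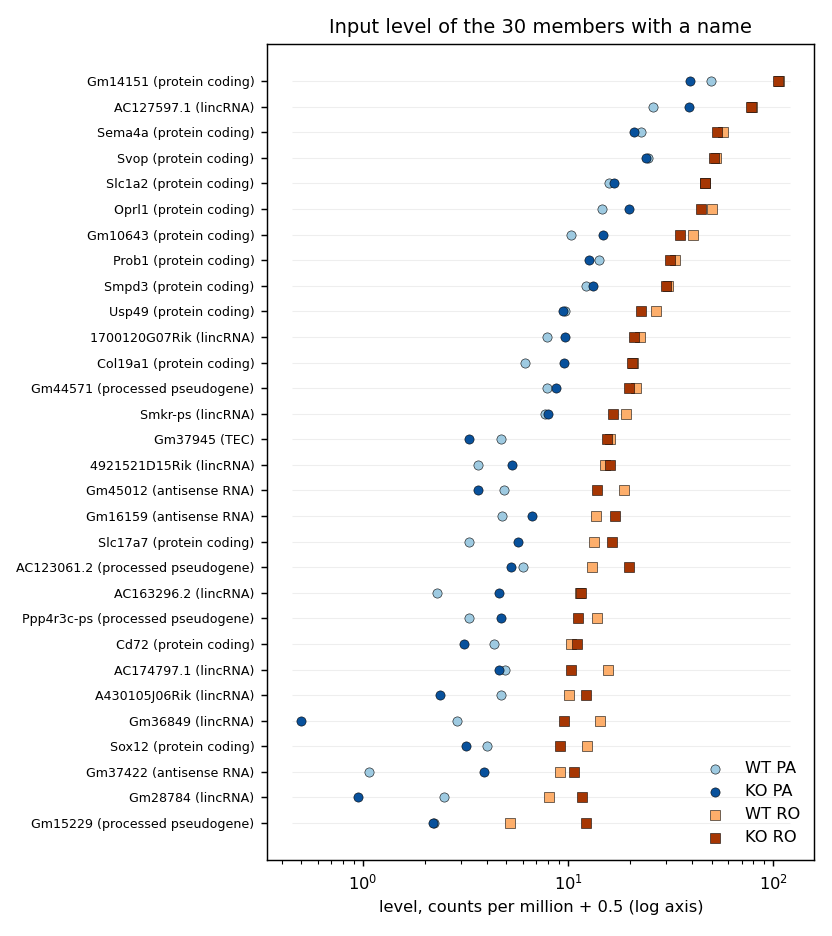
Levels of the 30 genes with a name in the 4 input libraries, in CPM with 0.5 added, on a log axis, 1 row per gene ordered by the lower RO value; each point is 1 library and there are no error bars because each group has 1 library. In every row both RO points lie to the right of both PA points, as the rule requires, from Gm14151 at 105 and 106 in RO down to Gm15229 at 4.69 and 11.7.

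Between genotypes the values of the genes higher in RO were close on average, which the rule sets in part, since it asks all 4 values to be ordered by fraction. The median log2 ratio of KO to WT values was 0.09 for PA and -0.04 for RO, against -0.01 and -0.02 over all genes at the level. In PA, 7 of the 99 were at least 2-fold higher in KO and 5 at least 2-fold lower, where 13.5% and 12.4% of all genes at the level were. In RO, 4 were higher and 3 lower, where 12% and 12.1% of all genes were. A total of 17 genes passed 2-fold in either fraction, 2 of them on the same side in both and 0 on opposite sides, where 38.4%, 10.9% and 0.741% of all genes at the level did so. The lower shares cannot be read as steadiness of these genes, because the rule limits, without excluding, large genotype differences in its members. With 2 in place of 0.5 added, 3 of the 99 were 2-fold apart in PA. With library totals as the scaling, the median log2 ratio of all genes at the level shifted to 0.26 in PA and 0.15 in RO, that of the 99 to 0.36 and 0.13, so that its sign in RO flipped, and the numbers past 2-fold became 12 up and 4 down for PA and 8 up and 2 down for RO, where 20.1% and 7.71% of all genes were in PA and 15.5% and 8.96% in RO.

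Among the 30 genes with a name, the highest ratio of KO over WT in PA was that of the antisense RNA Gm37422. It stood at 0.574 CPM in WT PA, from 7 counts, and 3.4 in KO PA, from 38 counts, a 5.93-fold difference (95% exact binomial interval of the ratio 2.62 to 15.7, which covers counting error only, as do the intervals below). Its RO values were 8.62 and 10.2. AC163296.2, a lincRNA, was 2.28-fold higher in KO PA (1.35 to 3.99), at 1.8 and 4.12 CPM, and nearly equal in RO at 10.9 and 11. Slc17a7 came next, 1.86-fold higher in KO PA (1.2 to 2.93). For these 3 the genotypes lay closer together in RO than in PA, which the choice favours, since they were picked for their PA ratios.

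Their lowest ratios in PA with at least 4 counts in both libraries were those of Gm28784, A430105J06Rik and Gm37945. Gm28784 in KO PA was 0.228 times WT PA (0.0678 to 0.608), from 24 and 5 counts. The lincRNA A430105J06Rik stood at 4.18 CPM in WT PA and 1.88 in KO PA, 0.45 times (0.257 to 0.761). Gm37945 was at 0.664 times, and its interval of 0.411 to 1.06 included 1. Gm36849, with 29 PA counts in WT and 0 in KO, fell below the count asked for here. In RO, Gm28784 and A430105J06Rik were on the other side, 1.49-fold (1.13 to 1.97) and 1.22-fold (0.942 to 1.58) higher in KO.

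In RO the widest difference among genes with a name was in Gm15229, an X-linked processed pseudogene. It stood at 4.69 CPM in WT RO and 11.7 in KO RO, 2.5-fold higher (1.82 to 3.48), while its PA values were 1.72 and 1.7. AC123061.2 was 1.54-fold higher in KO RO (1.24 to 1.91) and Gm28784 came next. The lowest were AC174797.1 at 0.655 times WT RO (0.513 to 0.834), Gm36849 at 0.658 (0.509 to 0.846) and Sox12 at 0.732 (0.56 to 0.954). At the other end, Slc1a2 was at 0.999 (0.885 to 1.13) and Gm14151 at 0.989 (0.913 to 1.07). Of the 30 genes with a name, the interval lay above 1 for 8 and below 1 for 4 in PA, and above 1 for 4 and below 1 for 6 in RO. Over all genes at the level these shares were 38.9% and 40.4% in PA and 37.2% and 40.7% in RO. The 2 cannot be set against each other, because intervals narrow with counts and the rule limits genotype differences. Median PA values were 4.96 CPM (WT) and 5.69 (KO) for the 30 genes and 26 and 26.5 for all genes at the level. Without replicates these intervals leave out all variation between animals and preparations.

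**Figure D3:**
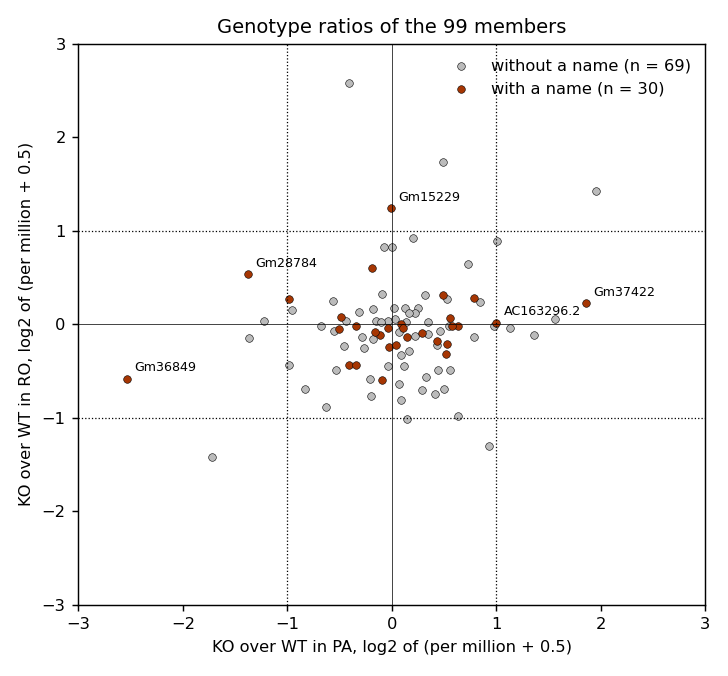
Log2 ratios of KO to WT values, PA on the x axis and RO on the y axis, with 0.5 CPM added to each value, for the 99 genes higher in RO (members), coloured where the gene has a name, with dotted lines at 2-fold. Most points lie within 1 of 0 on both scales; Gm37422 is at 1.86 in PA and 0.23 in RO, and Gm15229 at -0.01 in PA and 1.24 in RO.

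Protein-coding genes made up a minority of the genes with a name. Of the 30, 13 were protein coding (43.3%), 9 lincRNA (30%), 4 processed pseudogenes (13.3%), 3 antisense RNA (10%) and 1 TEC (3.33%). Of the other 6972 genes with a name at the level, 89.1% were protein coding and 3.06% lincRNA. Level went with class: among other genes whose highest value was 10 to 30 CPM, 79.8% of 2174 were coding, and among the genes higher in RO in that range 5 of 21 were (23.8%), with 8 lincRNAs. Of the 9 with a highest value of 30 or more, 8 were coding. Of the 32 genes with a name that met the mirrored rule for PA, 24 were coding (75%) and 3 lincRNA. All of these shares count only genes with a peak in some list, and nothing is known here of the 69 others.

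**Figure D4:**
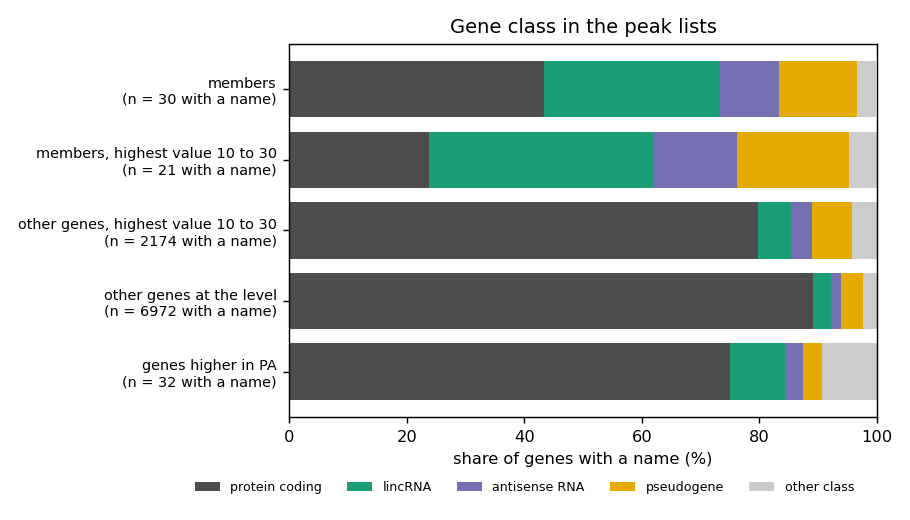
Share of genes in each class, in percent of the genes with a name, as stacked bars for the 30 genes higher in RO (members), the 21 of them with a highest value of 10 to 30 CPM, other genes in that range, the other genes at the level and the 32 genes higher in PA. Protein-coding genes make up 43.3%, 23.8%, 79.8%, 89.1% and 75% of these bars.

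Several non-coding members lie within protein-coding genes. Strand cannot tell their counts from those of a host on the same strand. For a host on the opposite strand, the counts cannot be told apart where strand was not used. Gm44571 lies on the same strand within C2cd3, a gene of the centriole, which stood at 334 CPM (WT) and 345 (KO) in PA cells and 467 and 321 in RO cells. AC123061.2 lies on the same strand within Pcdh9, a protocadherin, which stood at 7.3, 10.1, 18.7 and 11. Of these hosts, Pcdh9 was higher in RO in WT (log2 ratio 1.30) and had 0.12 in KO, whereas AC123061.2 had 1.12 and 1.92. On the opposite strand, A430105J06Rik lies in Rrp15, Gm16159 in Fgfr1 and Gm37945 in Ephb1, whose log2 ratios were between -1.11 and 0.10. Gm37422 lies in Smyd2 and Gm45012 in Mogat2, for which no counts could be assigned by name. The coding members Cd72 and Gm10643 overlap Tesk1 and Rfx1 on the opposite strand, with ratios of 0.26 in WT and 0.25 in KO for Tesk1 and 0.74 and 0.09 for Rfx1. Usp49 overlaps the protein-coding genes Gm20517 and Tomm6, for which no counts could be assigned by name either, and its promoter window lies within Gm20517.

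Of the 30 genes, 5 lay on chromosome 7 (16.7%, where 7.54% of the 7002 genes with a name at the level lie). Chromosome 2 held 4 (13.3%, against 7.53%) and chromosome 1 held 4 (13.3%, against 6.26%). These shares were not tested. The X chromosome, which is silenced in male meiotic prophase and partly active again in round spermatids, held 2, Ppp4r3c-ps and Gm15229 (6.67%, against 2.36% of the 7002). Ppp4r3c-ps stood at 2.79 CPM (WT) and 4.21 (KO) in PA cells and 13.3 and 10.6 in RO cells. Both are processed pseudogenes, and with 20 CPM as the minimum level 0 of the genes with a name were X-linked. No 2 of the 30 lay within 1 Mb of each other.

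The authors deposited 1 list of m6A peaks for each genotype and fraction, and the folds and false discovery rates below are theirs. The lists were assigned by their names alone. Of the 99 genes, 6 had a peak in the WT PA list and 14 in the KO PA list, while the RO lists held peaks for 19 (WT) and 13 (KO). Of all genes at the level, 30.4%, 39.7%, 36.3% and 35.7% had one in those lists, in the same order. A peak in any list was found for 30 of the 99 (30.3%), where 51.9% of all genes at the level had one. Since a peak is easier to find in an abundant transcript, the shares were also taken by level: among genes with a highest value of 10 to 30 CPM, 26.6% of the 79 had a peak in some list and 38.5% of the 5653 other genes did. In the RO lists, 7 of the 68 at 10 to 30 CPM in WT RO had a WT RO peak (10.3%, against 29.4% of other genes at that level), and 10 of the 64 in KO RO a KO RO peak (15.6%, against 28.5%). Below 10 CPM the order was reversed in WT RO, at 5 of 13 (38.5%, against 18.1%), and in KO RO it was 0 of 17 (against 17.1%). At 30 to 100 CPM the shares were 6 of 17 in WT RO (35.3%, against 44.4%) and 2 of 17 in KO RO (11.8%, against 43.8%). No test was made of these differences.

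Peaks of the 30 genes were more often in RO lists alone and in a single list than those of other genes. The RO lists alone held peaks for 15 of the 30 (50%, against 16.9% of the other 6972 genes with a peak), the PA lists alone for 3 (10%, against 11.8%), and lists of both fractions for 12 (40%, against 71.3%). These genes were chosen for more RNA in RO, and the level moves with peak detection; its part in this split was not tested. A single list held all peaks of 15 (50%, against 24.7%). It was the WT RO list in 10 cases (33.3%, against 11.1%) and the KO RO list in 4 (13.3%, against 3.79%). All 4 lists held a peak for 2 genes, Cd72 and Usp49 (6.67%, against 40.7%). By genotype, 11 had peaks in WT lists only (36.7%, against 15.9%) and 9 in KO lists only (30%, against 17.5%). None of the shares in this paragraph was taken by level. Of the 30 genes 21 had a highest value of 10 to 30 CPM, against 2174 of the 6972, so the shares cannot be read as a trait of these genes.

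**Figure D5:**
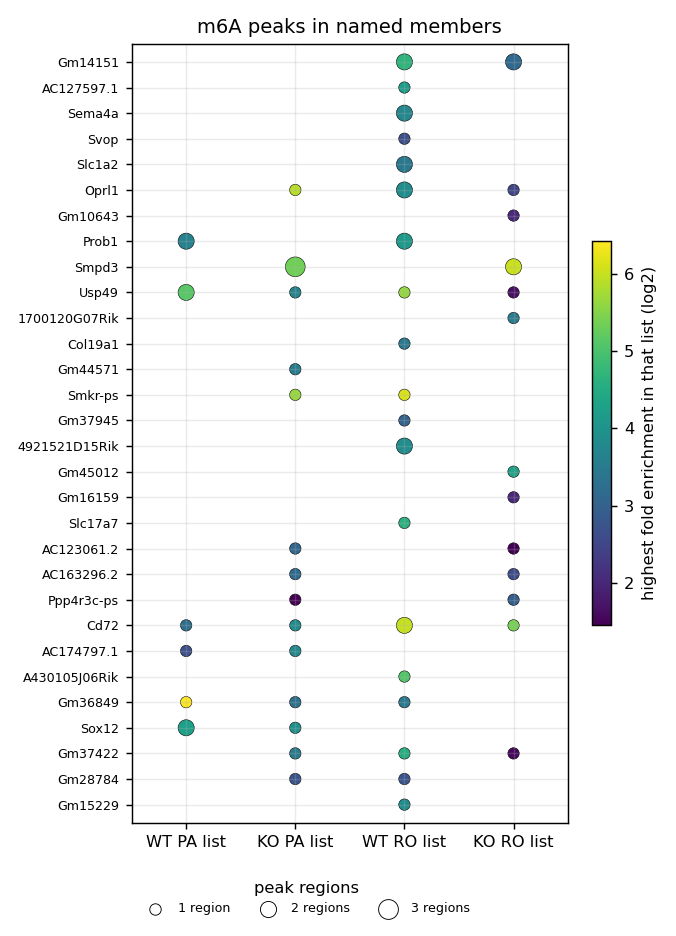
Peaks of the 30 genes with a name in the 4 peak lists; rows are genes ordered by the lower RO value, columns are lists, a point marks peaks, its size gives the number of separate regions (1 to 3) and its colour the authors' highest fold on a log2 scale, to be compared within a column only. Cd72 and Usp49 have a point in all 4 columns, Gm14151 in both RO columns and neither PA column, and 15 genes in 1 column only.

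Both genes with peaks in every list had 1 place where the peaks of all 4 lists overlapped. The peaks of Usp49 shared a stretch of the 3′ untranslated region at chr17:47684257-47684466, on the plus strand, in the WT PA and KO PA lists, and overlapped it in the RO lists. Their fold was 34.8 in WT PA (higher than 85% of that list), 12.8 in KO PA (48.8%), 49.8 for RO cells of WT (84.7%) and 3.16 for those of KO (5.23%). In Cd72 the 4 lists overlapped in what the authors annotate as the 3′ untranslated region, around chr4:43447533-43447771, on the minus strand. RefSeq ends Cd72 at 43447724, inside this stretch. Tesk1, which overlaps Cd72 on the opposite strand, stood at 145 CPM (WT) and 89.2 (KO) in PA cells and 174 and 106 in RO cells. The part of Tesk1 RNA in these peaks was not tested. The fold in the overlapping peaks was 9.49 in WT PA (above 37.9% of the list), 14.4 in KO PA (54.7%), 40.5 for RO cells of WT (80.8%) and 41.9 for those of KO (88.2%). Usp49 thus stood low in the KO RO list and high in WT RO, and Cd72 high in both, though ranks from lists of different lengths show no change.

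Gm14151 was the one gene with peaks in both RO lists and neither PA list, a pattern of 3.33% of the 30 and 1.98% of the other genes. Its 2 peaks per list lay in the coding sequence on the minus strand of chromosome 2. At chr2:151088265-151088502 the WT RO peak had a fold of 25.6 (false discovery rate 2.57e-06), and the overlapping KO RO peak one of 8.74 (0.0263). At chr2:151089630-151089986 the WT RO fold was 17.5 (3.39e-05), and that of the overlapping KO RO peak was 7.57, with a false discovery rate of 0.0631. Its PA levels, 49 CPM (WT) and 38.7 (KO), were the highest of the set for either genotype. Why neither PA list held a peak for it was not tested.

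Among the other coding genes, the peaks of Smpd3 were in KO lists only. Its coding-sequence peak, chr8:106264888-106265426 in KO PA, had a fold of 40.6 there and, in an overlapping peak, 64.7 in KO RO, higher than 94.4% of that list. Its input levels were nearly equal in WT and KO, and why only the KO lists held its peaks was not tested. Prob1, in contrast, had peaks in WT lists only, as 2 regions in each, at folds of 9.49 to 17.5; the WT PA region at 9.49 had a false discovery rate of 0.416. Sox12 had peaks in both PA lists, in its coding sequence, and in neither RO list, although its RNA was higher in RO. Oprl1 had a 3′ untranslated peak at chr2:181720300-181720598 with a fold of 58.7 in KO PA (above 93.6% of the list) and 5.63 in KO RO, and a WT RO peak overlapping it had 2.27.

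The glutamate transporters had peaks in the WT RO list only. Those of Slc1a2, 2 in the 3′ untranslated region, had false discovery rates of 0.818 and 0.199, so they do not pass 0.05. That of Slc17a7 had a fold of 24.2 and a rate of 5.89e-06. The single peaks of Col19a1 (0.199), Gm37945 (0.818) and Gm16159 (0.128), and both peaks of Gm28784 (0.818 in WT RO and 0.0832 in KO PA), did not pass 0.05 either.

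Among the non-coding genes, Gm36849 had a fold of 85.4 in WT PA, higher than 96.8% of that list, over 3 exon blocks between 136353718 and 136356211 on chromosome 7. The gene also had a peak of fold 9.78 in the KO PA list, although the KO PA input library had 0 counts for it; the cause was not tested. Smkr-ps had folds of 70 in WT RO (above 90.5% of the list) and 50 in KO PA (91.2%), in overlapping peaks. A430105J06Rik had 33.6 in WT RO (75.6%). The lincRNA with the highest CPM, AC127597.1, had a WT RO peak at chr14:26315758-26316027 with a fold of 18.4 and none in the other lists.

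In total the 30 genes carried 73 peaks in 66 separate regions per list, since some peaks of Prob1 and Sox12 were near-duplicates of each other. Of these 73, 12 missed a false discovery rate under 0.05: 3 of 13 in WT PA, 1 of 17 in KO PA, 6 of 28 in WT RO and 2 of 15 in KO RO. Over the whole lists 6.88%, 2.15%, 13.1% and 3.54% of peaks missed it, in the same order. Of the 73, 44 overlapped a peak of another list by at least 1 base on the same strand. Between the genotypes in RO, 5 of 28 peaks from WT and 5 of 15 from KO met a peak of the other list. Of the 43 RO peaks 17 overlapped a PA peak, and of the 30 PA peaks 17 overlapped an RO peak. Overlap was not taken over the whole lists, so these counts cannot be read as particular to the 30 genes. The median fold was 12.6 (WT) and 11.8 (KO) in PA cells and 14.8 and 7.57 in RO cells, against medians of 11.7, 13, 15.1 and 12.1 over the whole lists.

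In the coding genes the peaks lay less often in the coding sequence than in the lists at large. Of their 45 peaks, 19 were in a 3′ untranslated region (42.2%, against 25.8% of the 31624 peaks of coding genes in the 4 lists), 13 in the coding sequence (28.9%, against 60.4%), 3 in a 5′ untranslated region and 10 annotated only as exon (22.2%, against 9.89%). Most of the exon peaks were those of 1 gene, Prob1, with 4 in WT PA and 4 in WT RO that lay in 2 regions of each list. The 45 peaks came from 13 genes and 4 lists and often marked the same place more than once, so they are not independent, and the shares were not tested.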

How the data were processed

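Samples were grouped by their titles into WT and KO, PA and RO, with 1 input and 1 immunoprecipitated library each. The authors deposited whole-number gene counts of the 4 input libraries, not normalized, and 4 peak lists. A peak carries, per the file headers, a fold enrichment (a ratio of immunoprecipitated over input) and a score column, which holds a p-value, and a log10 false discovery rate, entered as a score. The submitters' processing notes name cutadapt 2.5, HISAT2 2.1.0, HOMER 4.10.4 and build mm10, with no role; the peak caller, counting tool, annotation, strand and duplicate handling are not given in the sources used here. Folds depend on the depth of each library pair and were read only within a list. Peak starts were turned into 1-based coordinates.

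Counts were divided by median-of-ratios size factors (PA: 1.08 WT, 0.986 KO; RO: 1.06 WT, 1 KO) and expressed as CPM relative to the mean library total. The work used pandas 2.3.3, numpy 2.4.6 and scipy 1.17.1 under Python 3.11.15, and figures matplotlib 3.10.9. The code of the rule was run on counts simulated with counting error only and no genotype difference. That checks the code and not the error rate of the rule in these data. Names came from the peak lists, which name 8733 genes, and promoters and gene positions from RefSeq. Levels between genes are not per length, so they are compared between libraries and not between genes except as an order of counts. Alternatives were TMM factors (edgeR 4.0.16 in R 4.3.3, for scaling alone), library totals, other levels, added values and folds, and stricter peaks.

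The genes and the marker lists were chosen with earlier results of these data known. Genes were named where they were highest by ratio or RO level, at the extremes of the genotype ratio, by class, by peak pattern or at the threshold; the other genes with a name were added after their values were seen. Alkbh5 itself was not analysed here, which leaves the genotypes as labelled.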

Additional observations from a re-analysis of the deposited data

How the results depend on the processing

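The count of genes higher in RO depended on the level, the added value and the fold more than on the scaling. Of 99 genes, 98 were also among the 103 found with TMM factors and 78 among the 102 found with library totals; 30 and 26 of the 30 genes with a name stayed at 2 or more, and Svop, Col19a1, Gm16159 and AC127597.1 did not under library totals (1.94, 1.91, 1.82 and 1.8). These 2 alternatives for single genes were chosen after seeing the data. A minimum level of 20 CPM left 39 genes, no minimum gave 760, an added value of 2 gave 60, and folds of 1.5 and 3 gave 402 and 11. With an added value of 2, 3 genes in place of 12 were 2-fold apart between genotypes in PA. At the minimum level of 20, 2 genes had a WT PA peak, 4 a KO PA peak, 9 a WT RO peak and 6 a KO RO peak. Of the 13 with a name at that level 0 were X-linked. With peaks of at least 5-fold, 8 genes in place of 13 had a KO RO peak. The other planned counts stayed within 1.5 times the reported ones. The labels carry no replicate numbers to pair samples by, and no fit with genotype or fraction as a block was run; over the 4 input libraries it would rest on 1 residual degree of freedom. With 1 library per group, no replicate could be left out. At median PA counts of 52 and 49, ratios of single genes carry wide counting error, and peaks of low transcripts can be missed.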
